A study of Mus musculus with 8 samples.

Results

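The E2F transcription factor family was described here through the array probes whose gene name is E2f1 to E2f8, Tfdp1 or Tfdp2. All 10 listed genes were found, with 14 probes, among 55681 probes on the array and 21320 genes that passed the filter on dim signal. RNA came from the mouse line wk3, pre-B cells of genotype SLP-65-/-, which miss an adaptor of pre-B cell receptor signalling, so the controls carry that deletion too. Cells had been transduced with a retroviral vector and selected with puromycin. Sponge cells expressed a miR-15 sponge, an RNA with binding sites for all members of the miR-15 family, and scrambled cells expressed a control vector with a scrambled sponge. Each kind of cell was cultured either 36 h without IL-7 or with IL-7 in excess, which gave 4 groups of 2 arrays: sponge without IL-7, sponge with IL-7, scrambled without IL-7 and scrambled with IL-7. The study's design asked how sequestering these miRNAs changes gene expression while pre-B cells respond to loss of their growth factor. All cells derive from 1 line, the 2 replicates of a group come from separate experiments with separately made clones, and the miRNAs themselves were not measured on these arrays.

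E2F proteins bind the promoters of genes needed for DNA replication and cell division, most of them as a dimer with a DP protein (genes Tfdp1 and Tfdp2). In quiescent cells the pocket proteins RB, p107 and p130 hold E2F in repressing complexes, and cyclin-dependent kinases release it by phosphorylating them when a growth factor such as IL-7 drives cells into S phase. E2F1, E2F2 and E2F3 are classed as activators and E2F4 to E2F8 as repressors, of which E2F7 and E2F8 bind DNA without a DP partner.

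The sponge was designed against miR-15a, miR-15b, miR-16, miR-195, miR-322 and miR-497. The mature sequences (RefSeq, GRCm38.p6) are given below to show what these miRNAs share, with the seed, bases 2 to 8, in capitals. The arm of each and the name with the letter a for miR-195 and miR-497 are those of the RefSeq table.
mmu-miR-15a-5p: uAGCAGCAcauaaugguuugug
mmu-miR-15b-5p: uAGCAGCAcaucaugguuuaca
mmu-miR-16-5p: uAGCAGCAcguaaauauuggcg
mmu-miR-195a-5p: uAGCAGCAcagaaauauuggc
mmu-miR-322-5p: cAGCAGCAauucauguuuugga
mmu-miR-497a-5p: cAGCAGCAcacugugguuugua
All 6 have the seed AGCAGCA, and they differ in the bases after it. They come from 7 genes, since miR-16 is made from Mir16-1 (chr14:61631936-61631957) and Mir16-2 (chr3:69009918-69009939).

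Values are one-colour intensities. A log2 level is the log2 processed signal minus the log2 of the 75th percentile of the same array. Per array, 50.6% to 56.6% of spots were well above background. The 2 replicates of a group correlated over all genes at 0.990 to 0.997, and the scrambled cells with IL-7 stood apart with 1168 genes over 1 log2 unit apart between their replicates, against 193 to 519 in the other groups. All 9 pre-B cell markers (among them Cd79a, Vpreb1 and Pax5) were well above background on 8 of 8 arrays. Of the markers of other cells on the array, 2 of 4 T cell, 2 of 6 myeloid, 2 of 4 NK cell, 1 of 4 erythroid and 1 of 5 fibroblast genes were so on all 8, while Ncr1, Col1a1, Pdgfra, Pdgfrb and Dcn were among those on 0. Those on all 8 were Cd3e, Cd4, Itgam, Csf1r, Klrb1c, Prf1, Epor and Col1a2. Log2 levels were 3.58 to 4.71 for Itgam, 1.058 to 1.605 for Cd4 and 0.81 to 1.304 for Cd3e, against 0.23 to 1.197 for Pax5. Csf1r, at -1.05 to 0.35, reached into the Pax5 range. Klrb1c, Prf1, Epor and Col1a2 were dimmer, with highest levels of -1.25, -1.42, -2.13 and -3.22. All arrays lay on 1 slide, with the arrays without IL-7 in slide column 2, those with IL-7 in column 1, and the sponge and the scrambled cells in different rows, so that slide position and group cannot be told apart.

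All 14 probes of the family were well above background on all 8 arrays, and none was saturated or flagged. The 10 genes took a small number of courses over the 4 groups. E2f1, E2f7, E2f8 and Tfdp1 dropped steeply in scrambled cells without IL-7 and were higher in sponge cells without IL-7. E2f3 shared both changes at a smaller size, and in E2f2, E2f4 and E2f6 both were under 1 log2 unit. E2f5 was lower in sponge cells whether or not IL-7 was present, and Tfdp2 was highest in scrambled cells without IL-7. RNA was taken from whole cultures, so fewer cells that express a gene and less of its RNA per cell cannot be told apart.

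**Figure D1:**
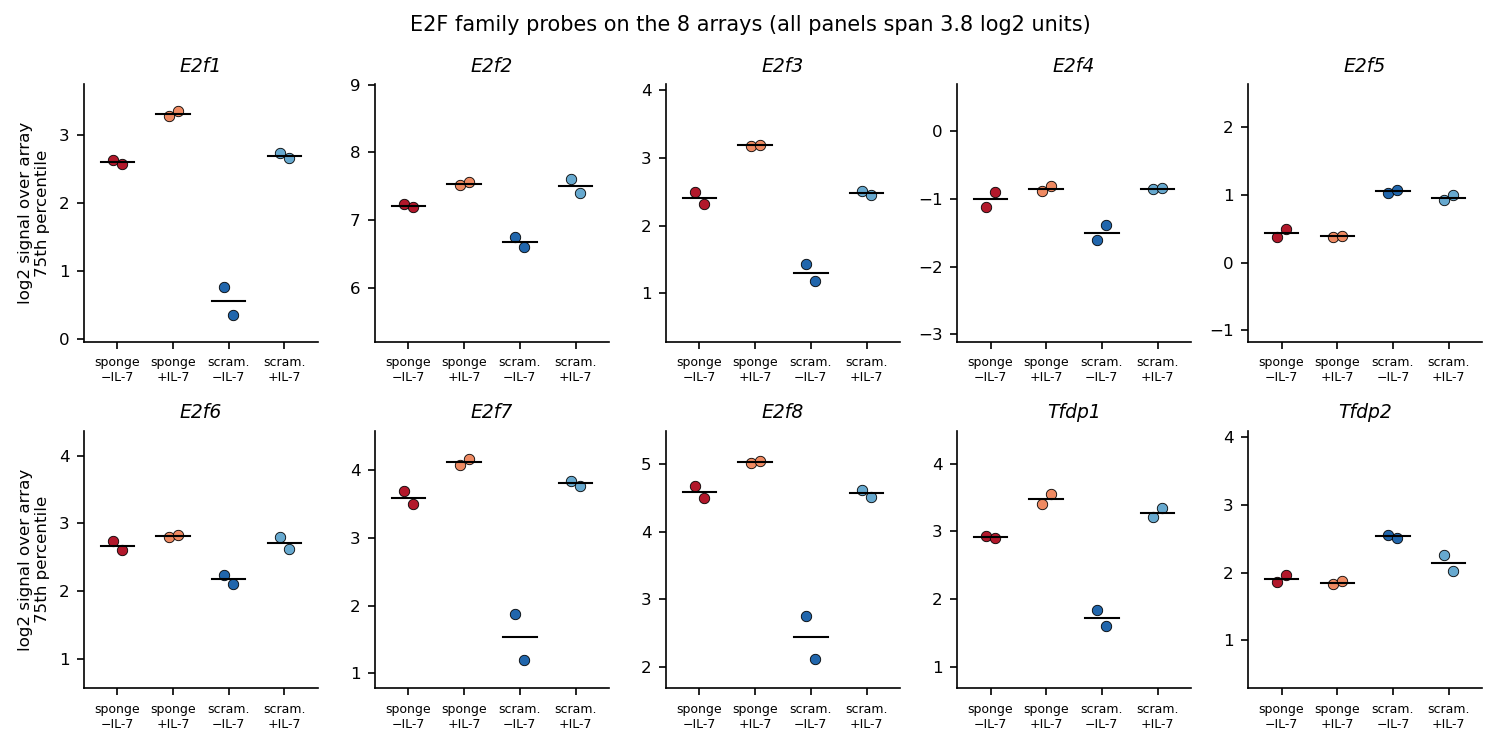
Log2 level of each family member on the 8 arrays (vertical axis, log2 signal over the array's 75th percentile; points are arrays, bars are means of 2; sponge cells red, scrambled cells blue). E2f1, E2f7, E2f8 and Tfdp1 sat lowest on the 2 arrays of scrambled cells without IL-7, while E2f5 and Tfdp2 were lower in both sponge groups than in both scrambled groups. For Tfdp2 this holds for the probe shown and not for its other probe, and its difference with IL-7 was not called.

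E2f1, the activator best known for driving entry into S phase and for inducing apoptosis, was measured by 1 probe at chr2:154385798-154385857 (mm9, minus strand). Its log2 levels were 2.64 and 2.58 in sponge cells without IL-7, 3.28 and 3.36 in sponge cells with IL-7, 0.76 and 0.34 in scrambled cells without IL-7, and 2.73 and 2.67 in scrambled cells with IL-7. The 4 groups did not overlap: sponge cells with IL-7 were highest, scrambled cells without IL-7 were lowest by a wide gap, and sponge cells without IL-7 lay just under scrambled cells with IL-7. In sponge cells E2f1 fell by 0.71 log2 units on withdrawal (SE 0.14, 1.64-fold lower, limma adjusted p = 0.0192). In scrambled cells it fell by 2.15 (SE 0.14, 4.44-fold lower, adjusted p = 0.000307).

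E2f2, an activator with a known part in restraining lymphocyte proliferation, has 1 probe at chr4:135750562-135750621 (mm9, plus strand) with processed signals of 35776 to 67656. Its log2 levels were 7.23 and 7.19 in sponge cells without IL-7, 7.52 and 7.55 in sponge cells with IL-7, 6.74 and 6.60 in scrambled cells without IL-7, and 7.61 and 7.40 in scrambled cells with IL-7. The groups with IL-7 overlapped, and both groups without IL-7 were lower, the scrambled cells more so. The change in sponge cells on withdrawal was -0.33 (SE 0.10, adjusted p = 0.0622), not called, and it turned to between 0.07 and 0.12 with quantile normalisation, with normexp background correction and in the authors' deposited value table. It passed with a filter on all 8 arrays (adjusted p = 0.0435), with limma-trend (0.0124) and without either array of scrambled cells with IL-7 (0.0422). In scrambled cells E2f2 fell by 0.83 (SE 0.10, adjusted p = 0.0013). Under the same scalings that value was -0.40 to -0.27, still called.

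E2f3, the other activator, had log2 levels of 2.50 and 2.32 in sponge cells without IL-7, 3.18 and 3.19 in sponge cells with IL-7, 1.43 and 1.18 in scrambled cells without IL-7, and 2.51 and 2.45 in scrambled cells with IL-7. Sponge cells with IL-7 were above all other arrays, scrambled cells without IL-7 below all others, and the 2 groups between them overlapped. E2f3 fell by 0.77 in sponge cells on withdrawal (SE 0.11, adjusted p = 0.00748) and by 1.18 in scrambled cells (SE 0.11, adjusted p = 0.000639).

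E2f7, an atypical E2F that represses cell cycle genes and E2f1 itself, had log2 levels of 3.69 and 3.50 in sponge cells without IL-7, 4.08 and 4.16 in sponge cells with IL-7, 1.88 and 1.20 in scrambled cells without IL-7, and 3.84 and 3.77 in scrambled cells with IL-7. The groups did not overlap, and the arrays of scrambled cells without IL-7 were the lowest and lay farthest from each other. The change of E2f7 on withdrawal was -0.52 in sponge cells (SE 0.22, adjusted p = 0.143), which did not pass the test. In scrambled cells E2f7 fell by 2.27 (SE 0.22, 4.82-fold lower, adjusted p = 0.000669).

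E2f8, the other atypical E2F, has 1 probe at chr7:56121860-56121919 (mm9, minus strand). Its log2 levels were 4.68 and 4.50 in sponge cells without IL-7, 5.01 and 5.05 in sponge cells with IL-7, 2.76 and 2.13 in scrambled cells without IL-7, and 4.62 and 4.51 in scrambled cells with IL-7. Sponge cells without IL-7 overlapped with scrambled cells with IL-7, and scrambled cells without IL-7 were far below both. The change in sponge cells was -0.44 (SE 0.20, adjusted p = 0.183), while E2f8 fell by 2.12 in scrambled cells (SE 0.20, 4.36-fold lower, adjusted p = 0.000674).

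E2f4, the main partner of p130 and p107 in quiescent cells, had log2 levels of -1.12 and -0.89 in sponge cells without IL-7, -0.89 and -0.81 in sponge cells with IL-7, -1.61 and -1.39 in scrambled cells without IL-7, and -0.86 and -0.84 in scrambled cells with IL-7. Only the scrambled cells without IL-7 stood clearly below the rest, and the 2 groups with IL-7 overlapped. The change on withdrawal was -0.15 in sponge cells, with a 95% interval of -0.43 to 0.12 (adjusted p = 0.376). In scrambled cells E2f4 fell by 0.65 (SE 0.11, adjusted p = 0.00515).

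E2f6, which represses without a pocket protein through a Polycomb-like complex, had log2 levels of 2.73 and 2.61 in sponge cells without IL-7, 2.80 and 2.82 in sponge cells with IL-7, 2.24 and 2.10 in scrambled cells without IL-7, and 2.80 and 2.61 in scrambled cells with IL-7. Scrambled cells without IL-7 were again the lowest, while the scrambled cells with IL-7 overlapped with both sponge groups. The change on withdrawal was -0.14 in sponge cells (SE 0.10, adjusted p = 0.363), and E2f6 fell by 0.53 in scrambled cells (SE 0.10, adjusted p = 0.00683).

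E2f5, the other E2F that works with p130 and p107, took a different course. Its log2 levels were 0.38 and 0.50 in sponge cells without IL-7, 0.39 and 0.40 in sponge cells with IL-7, 1.03 and 1.08 in scrambled cells without IL-7, and 0.93 and 1.00 in scrambled cells with IL-7. Every array of sponge cells was below every array of scrambled cells, and in each kind of cell the levels without and with IL-7 lay close together. The change on withdrawal was 0.05 in sponge cells (95% interval -0.14 to 0.23) and 0.09 in scrambled cells (95% interval -0.09 to 0.27), neither of them called.

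Tfdp1, which encodes the DP1 partner, had log2 levels of 2.93 and 2.90 in sponge cells without IL-7, 3.40 and 3.56 in sponge cells with IL-7, 1.83 and 1.61 in scrambled cells without IL-7, and 3.21 and 3.34 in scrambled cells with IL-7. The groups did not overlap, and scrambled cells without IL-7 were the lowest. Tfdp1 fell by 0.56 in sponge cells on withdrawal (SE 0.11, adjusted p = 0.0178) and by 1.55 in scrambled cells (SE 0.11, 2.94-fold lower, adjusted p = 0.000333).

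Tfdp2, which encodes the DP2 partner, had log2 levels of 1.86 and 1.96 in sponge cells without IL-7, 1.83 and 1.88 in sponge cells with IL-7, 2.56 and 2.51 in scrambled cells without IL-7, and 2.27 and 2.02 in scrambled cells with IL-7. By this probe all sponge arrays were below all scrambled arrays, and the highest were those of scrambled cells without IL-7, opposite to Tfdp1. By the other Tfdp2 probe sponge cells without IL-7 (1.53 and 1.53) overlapped with scrambled cells with IL-7 (1.56 and 1.5). The change on withdrawal was 0.06 in sponge cells (SE 0.10, adjusted p = 0.731), and Tfdp2 rose by 0.39 in scrambled cells (SE 0.10, adjusted p = 0.0225). The rise was not called without either array of scrambled cells without IL-7 (adjusted p = 0.101 and 0.0808) or without replicate 2 of scrambled cells with IL-7 (adjusted p = 0.0636), nor with no filter on dim probes (adjusted p = 0.0571).

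Loss of IL-7 lowered 3 of the 10 members in sponge cells, E2f1, E2f3 and Tfdp1, where 15.2% of all genes tested were called lower. It raised 0 there by limma's test, with 0 at an unadjusted p under 0.05 as well, where 7.92% of all genes were called higher. In scrambled cells it lowered 8 members (E2f1, E2f2, E2f3, E2f4, E2f6, E2f7, E2f8 and Tfdp1), where 27.4% of all genes were called lower, and raised 1, Tfdp2, where 20.7% were called higher. In either direction 23.2% of all genes were called in sponge cells and 48.1% in scrambled cells. Both arrays without IL-7 lay below both with IL-7 for 8 members in sponge cells, as for 40.3% of all genes, and for 8 members in scrambled cells, as for 39.8%, where the other 2 members lay above, as for 35.2%. The median change of the 10 members was -0.38 in sponge cells, against -0.06 for all genes, and -1.0 in scrambled cells, against -0.02 for all genes. In scrambled cells all 3 activators fell, with a median of -1.18, and 4 of the 5 repressors fell, with a median of -0.65. The call for E2f1 in sponge cells was lost without any 1 of the 4 sponge arrays (adjusted p = 0.0626 to 0.101), that for Tfdp1 without any 1 of these except replicate 1 with IL-7 (adjusted p = 0.0729 to 0.096), and both with no filter on dim probes (adjusted p = 0.0522 and 0.0516). E2f7 and E2f8 passed the test in sponge cells when either array of scrambled cells without IL-7 was left out (adjusted p = 0.0307 and 0.0453).

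**Figure D2:**
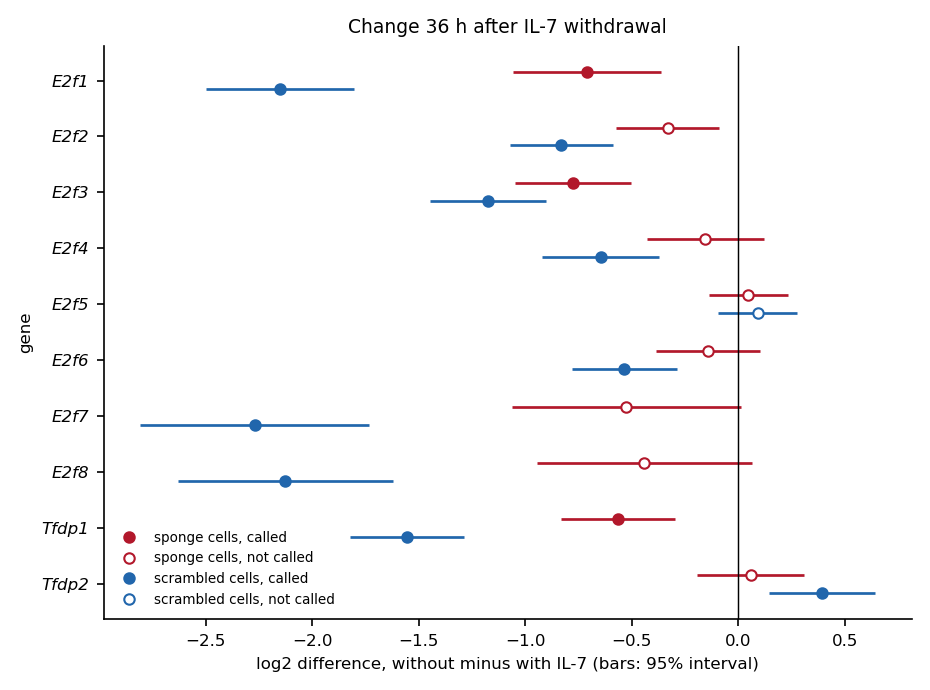
Log2 difference 36 h without IL-7 minus with IL-7 (horizontal axis) for each member in sponge cells (red) and scrambled cells (blue); bars are 95% intervals and filled points passed limma's adjusted p of 0.05. In sponge cells 3 members fell and in scrambled cells 8 fell; the uncalled E2f2 value in sponge cells turns to above 0 under quantile scaling, under normexp correction and in the deposited table.

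Between the 2 kinds of cell without IL-7, every member differed. In sponge cells 8 of 10 were higher than in scrambled cells, where 16.8% of all genes tested were called higher, and 2 were lower, where 15.3% were called lower, 32.1% in either direction. The arrays of the 2 groups did not overlap for any member, with 8 above, as for 32.4% of all genes, and 2 below, as for 40.3%. E2f8 was 4.44-fold higher (2.15 ± 0.20 log2, SE, adjusted p = 0.00146), E2f1 was 4.17-fold higher (2.06 ± 0.14, adjusted p = 0.00111) and E2f7 was 4.16-fold higher (2.06 ± 0.22, adjusted p = 0.00177). The other E2f7 probe was 0.81 higher (adjusted p over all probes = 0.0276), and the mean of both probes was 1.44 higher (adjusted p = 0.00336). Tfdp1 was 2.29-fold higher (1.19 ± 0.11, adjusted p = 0.00138) and E2f3 was 2.16-fold higher (1.11 ± 0.11, adjusted p = 0.00157). The smaller rises were 0.54 for E2f2, 0.50 for E2f6 and 0.49 for E2f4 (adjusted p = 0.00994, 0.0139 and 0.021). The 2 members that were lower in sponge cells were E2f5 (-0.61 ± 0.07, 1.53-fold, adjusted p = 0.00265) and Tfdp2 (-0.63 ± 0.10, 1.54-fold, adjusted p = 0.00672). The median over the 10 members was 0.82, against -0.05 for all genes. The calls of E2f2 and E2f6 were lost without replicate 1 of sponge cells without IL-7 (adjusted p = 0.0578 and 0.077) and without replicate 2 of scrambled cells without IL-7 (0.0677 and 0.0881). The call of E2f4 was lost without replicate 2 of sponge cells without IL-7 (adjusted p = 0.097) or replicate 1 of scrambled cells without IL-7 (0.105), and with no filter on dim probes (0.0552).

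With IL-7 present, E2f5 was the only member called, lower in sponge cells by 1.48-fold (-0.57 ± 0.07 log2, SE, adjusted p = 0.0387). Of all genes tested 0.816% were called lower and 0.314% higher in this comparison, 241 genes or 1.13% in all. Without replicate 2 of scrambled cells with IL-7 the balance turned, with 837 genes called higher and 523 lower. With the replicate number as a block the adjusted p for E2f5 was 0.0585, with no filter on dim probes it was 0.123, and the call was lost in 7 of the 8 fits that left out 1 array (adjusted p = 0.0852 to 0.168). The values of E2f3 (0.71 ± 0.11, adjusted p = 0.0558) and E2f1 (0.62 ± 0.14, adjusted p = 0.109) were as large as that of E2f5 but did not pass. Both passed with normexp (0.80, adjusted p = 0.0129, and 0.73, adjusted p = 0.0382) and with limma-trend (adjusted p = 0.00433 and 0.0241), and E2f3 also with a filter on all 8 arrays (adjusted p = 0.0335). In 5 members both sponge arrays lay above both scrambled arrays, as in 27.3% of all genes, and in 2 both lay below, as in 23.3%. E2f4 differed by 0.00027 (95% interval -0.28 to 0.28) and E2f2 by 0.04 (95% interval -0.20 to 0.28). The comparisons with and without IL-7 use different arrays, but each shares its arrays with the withdrawal comparisons above, so their values are set side by side and not counted as separate evidence.

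**Figure D3:**
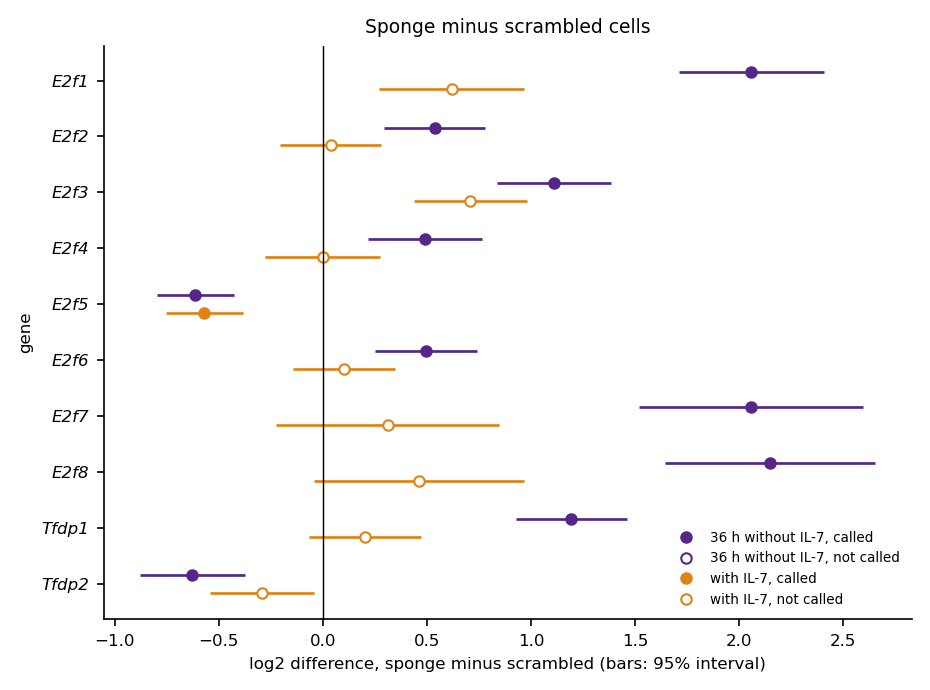
Log2 difference sponge minus scrambled cells (horizontal axis) for each member 36 h without IL-7 (purple) and with IL-7 (orange); bars are 95% intervals and filled points passed limma's adjusted p of 0.05. Without IL-7 all 10 members differed, 8 of them higher in sponge cells, whereas with IL-7 only E2f5 passed the test.

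The test of whether withdrawal acted differently in sponge cells than in scrambled cells was the difference of the 2 withdrawal effects. It was called positive, a smaller fall in sponge cells, for 4 of the 10 members, where 4.32% of all genes tested were called positive. It was called negative for 0, where 0.952% of all genes were called negative, 5.27% in either direction. The difference was 1.75 ± 0.31 for E2f7 (SE, adjusted p = 0.0394), 1.68 ± 0.29 for E2f8 (adjusted p = 0.0376), 1.44 ± 0.20 for E2f1 (adjusted p = 0.0306) and 0.99 ± 0.15 for Tfdp1 (adjusted p = 0.0328). E2f2 (0.50, adjusted p = 0.102), E2f4 (0.49, 0.14), E2f3 (0.40, 0.202) and E2f6 (0.39, 0.173) had positive values that did not pass, and those of Tfdp2 (-0.34, 0.235) and E2f5 (-0.04, 0.839) were negative and did not pass either. The value of Tfdp2 passed with normexp (-0.53, adjusted p = 0.0204) and that of E2f2 with limma-trend (adjusted p = 0.0207). With the replicate number as a block 0 members were called by limma, 8 had an unadjusted p under 0.05 as in the fit without the block, and the adjusted p was 0.0508 for E2f1, 0.053 for E2f7, 0.0508 for E2f8 and 0.0556 for Tfdp1. Of the 8 fits without 1 array, 2 kept the call for E2f1 and Tfdp1 and 1 kept it for E2f7 and E2f8, while the difference itself stayed between 1.23 and 1.65 for E2f1, 1.41 and 2.08 for E2f7, 1.37 and 2.00 for E2f8, and 0.88 and 1.1 for Tfdp1.

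E2f3, E2f7, Tfdp1 and Tfdp2 each had 2 probes, and the one with the higher mean signal stands for the gene above. For Tfdp1 the probes, at chr8:13377579-13377638 and chr8:13377791-13377850 (mm9), fell by 1.65 and 1.55 in scrambled cells and differed little in the other comparisons. For E2f3 the second probe maps to chr13:30005369-30008755 (mm9, minus strand), a span of 3387 bases for a 60-base probe, so it crosses an intron. It fell by 1.37 in scrambled cells, against 1.18 for the probe at chr13:29998480-29998539. For E2f7 the probes disagreed in size: on withdrawal in scrambled cells the probe at chr10:110219255-110219314 fell by 1.05 (SE 0.20, adjusted p over all probes = 0.0074), while the one at chr10:110224331-110224390 fell by 2.27 (adjusted p over all probes = 0.000791). The difference of the withdrawal effects was 0.56 for the dimmer E2f7 probe (adjusted p over all probes = 0.305), so the call for E2f7 rests on 1 of its 2 probes, and it was not made with the mean of both (1.15, adjusted p = 0.0674). For Tfdp2 the second probe, at chr9:96219269-96219328, rose in both kinds of cell on withdrawal, by 0.31 in sponge cells (adjusted p over all probes = 0.0348) and 0.25 in scrambled cells (0.0335), whereas the first, at chr9:96223955-96224014, had a value of 0.06 in sponge cells (0.745). Between sponge and scrambled cells without IL-7 the second Tfdp2 probe gave -0.25 (adjusted p over all probes = 0.0447), against -0.63 for the first, and its difference of the withdrawal effects was 0.06, against -0.34, neither of them called.

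**Figure D4:**
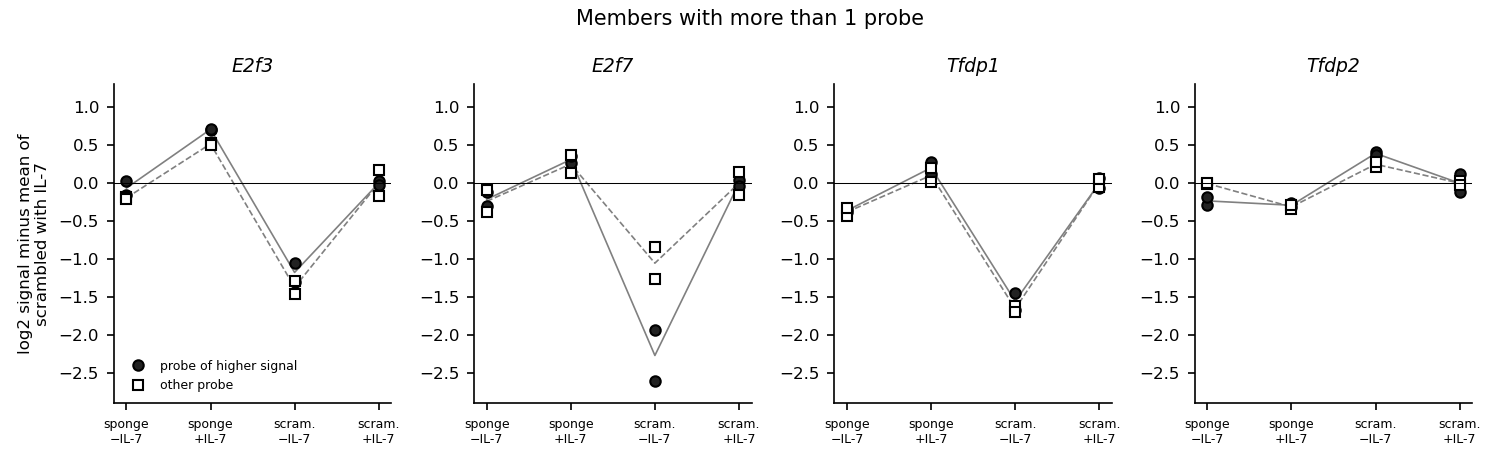
Log2 signal of both probes of E2f3, E2f7, Tfdp1 and Tfdp2 on each array, minus the probe's mean in scrambled cells with IL-7 (vertical axis; filled circles, the probe that stands for the gene; open squares, the other). The E2f7 probes part in scrambled cells without IL-7, at a mean of -2.27 and -1.05, and the Tfdp2 probes in sponge cells without IL-7.

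For E2f7, E2f8 and Tfdp1, which with E2f1 are the members whose withdrawal effects differed between the cells, 300 bases around the start of a transcript are given here (RefSeq, GRCm38.p6, 250 bases before to 50 after that start, on the gene's own strand). The E2f8 window lies inside the span that RefSeq gives the gene, after its outermost start. So does the only E2f1 window of the table, which is not printed here. Neither the E2f8 nor the E2f1 window holds the region before the gene. Capitals mark matches to the core of the E2F site, searched on both strands as TTNGCGC or TTNCCGC.
E2f7 (chr10:110745189-110745488, plus strand): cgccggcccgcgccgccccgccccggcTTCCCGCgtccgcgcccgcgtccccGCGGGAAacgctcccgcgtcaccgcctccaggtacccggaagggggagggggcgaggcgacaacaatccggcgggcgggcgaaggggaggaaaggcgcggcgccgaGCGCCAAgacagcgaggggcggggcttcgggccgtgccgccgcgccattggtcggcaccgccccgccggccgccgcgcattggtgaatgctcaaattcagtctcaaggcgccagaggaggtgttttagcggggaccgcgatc
E2f8 (chr7:48881547-48881846, minus strand): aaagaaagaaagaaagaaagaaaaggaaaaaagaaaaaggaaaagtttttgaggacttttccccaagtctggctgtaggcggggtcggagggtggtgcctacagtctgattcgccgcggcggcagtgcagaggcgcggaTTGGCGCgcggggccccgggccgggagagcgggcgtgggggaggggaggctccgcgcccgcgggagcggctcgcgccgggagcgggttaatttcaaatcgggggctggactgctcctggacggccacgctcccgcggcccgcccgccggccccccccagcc
Tfdp1 (chr8:13338501-13338800, plus strand): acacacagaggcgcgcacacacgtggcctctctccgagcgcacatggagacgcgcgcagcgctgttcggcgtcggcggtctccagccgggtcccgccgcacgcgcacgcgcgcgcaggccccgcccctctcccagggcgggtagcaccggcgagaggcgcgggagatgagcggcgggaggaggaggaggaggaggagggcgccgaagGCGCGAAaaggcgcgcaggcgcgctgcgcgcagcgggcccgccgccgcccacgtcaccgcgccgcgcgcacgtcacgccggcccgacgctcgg
The E2f7 window held 3 matches, at positions -223, -198 and -92 (first base of the match, with -1 the base before the start), the E2f8 window 1 at -111 and the Tfdp1 window 1 at -43. Windows were found for 8 of the 10 members, and 6 of these 8 had a match in at least 1 window: E2f2 (3 matches, the last a pair that overlaps by 4 bases), E2f3 (2), E2f6 (1), E2f7, E2f8 and Tfdp1. The windows of E2f1 and Tfdp2 held 0 matches. All of these, and the window of E2f8, lie inside the gene's span. The region before the outermost start of E2f1, Tfdp2 and E2f8 was therefore not searched. By window, 7 of the members' 12 windows held the core, and both Tfdp1 windows overlap and hold the same match. Of all 32851 windows of this length in the table, 14.5% held the core. The longer site, searched as TTTCCCGC, TTTCGCGC, TTTGCCGC or TTTGGCGC on both strands, was in windows of E2f2, E2f3, E2f7 and Tfdp1. That made 5 of the 12 windows, against 2.26% of all windows. The 8-letter site contains the core, so the counts overlap. G and C made up 75.3% of the E2f7 window, 66.7% of the E2f8 window and 78.0% of the Tfdp1 window printed above.

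Most of the listed genes that E2F is known to drive at the start of S phase fell on withdrawal in both kinds of cell and were higher in sponge than in scrambled cells without IL-7. Of 32 listed G1/S genes 31 were measured, and Ccne2 did not pass the filter. In sponge cells 20 of 31 fell on withdrawal, with a median change of -0.72, where 15.2% of all genes were called lower. In scrambled cells 30 of 31 fell, with a median of -2.19, where 27.4% were called lower. Without IL-7 30 of 31 were higher in sponge cells than in scrambled cells, where 16.8% of all genes were called higher. The median was 1.87, against -0.05 for all genes. With IL-7 0 of 31 passed limma's test, with a median of 0.43, 16 had an unadjusted p under 0.05, and 0 to 8 passed under the other settings. The difference of the withdrawal effects was positive and called for 25 of 31, where 4.32% of all genes were called positive. Its median was 1.46, but with the replicate block it was called for 0, and 28 had an unadjusted p under 0.05. In sponge cells 10 fell with quantile normalisation or the deposited table, 14 with normexp and 13 with no filter on dim probes. When 1 array was left out, 4 to 24 genes fell in sponge cells, the fewest without replicate 2 of sponge cells without or with IL-7, and the difference was called for 0 to 26.

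Among the G1/S genes, Mcm2, a subunit of the replicative helicase, had log2 levels of 3.51 and 3.51 in sponge cells without IL-7, 4.37 and 4.50 in sponge cells with IL-7, 1.71 and 1.57 in scrambled cells without IL-7, and 4.01 and 3.96 in scrambled cells with IL-7. Its groups did not overlap, and scrambled cells without IL-7 were the lowest. It fell by 0.93 in sponge cells (adjusted p = 0.00315) and fell by 2.34 in scrambled cells (adjusted p = 0.000234). Mcm7, of the same helicase, fell by 0.73 in sponge cells (adjusted p = 0.00425) and by 1.73 in scrambled cells (adjusted p = 0.000234). Mybl2, which encodes B-Myb, fell by 0.52 in sponge cells (adjusted p = 0.0282) and by 2.06 in scrambled cells (adjusted p = 0.000252).

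The pocket proteins did not move as 1 group. Rbl1 (p107) had log2 levels of 4.36 and 4.20 in sponge cells without IL-7, 4.55 and 4.74 in sponge cells with IL-7, 2.71 and 2.31 in scrambled cells without IL-7, and 4.31 and 4.34 in scrambled cells with IL-7, so that only scrambled cells without IL-7 were low. Its change on withdrawal was -0.36 in sponge cells (adjusted p = 0.144), it fell by 1.82 in scrambled cells (SE 0.15, adjusted p = 0.000476), and it was 1.78 higher in sponge than in scrambled cells without IL-7 (adjusted p = 0.00133). Rbl1 is also among the G1/S genes above. The values for Rb1 on withdrawal were -0.10 in sponge cells and -0.13 in scrambled cells (adjusted p = 0.361 and 0.195). Rbl2 (p130) was 0.44 higher in sponge than in scrambled cells without IL-7 (adjusted p = 0.0293), and its withdrawal effects were 0.24 in sponge cells and -0.12 in scrambled cells, neither of them called.

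Of the 10 cyclins and kinases that act on pocket proteins 8 were measured (Ccnd1 and Ccne2 did not pass the filter). On withdrawal 3 of 8 fell in sponge cells, with a median of -0.52, and all 8 fell in scrambled cells, with a median of -1.31, where 15.2% and 27.4% of all genes were called lower. The count in sponge cells was 1 without either array without IL-7 or replicate 2 with IL-7, 2 without replicate 1 with IL-7, 5 without either array of scrambled cells without IL-7, 2 with quantile normalisation, normexp, the deposited table or no filter on dim probes, and 7 with limma-trend. Ccne1 (cyclin E1) had the largest fall of both lists on withdrawal in scrambled cells. Its log2 levels were 4.15 and 4.06 in sponge cells without IL-7, 4.82 and 4.96 in sponge cells with IL-7, 1.38 and 0.38 in scrambled cells without IL-7, and 4.30 and 4.20 in scrambled cells with IL-7. The arrays of scrambled cells without IL-7 lay far below all others and about 1 log2 unit from each other. The change of Ccne1 on withdrawal was -0.79 in sponge cells (adjusted p = 0.121), and it fell by 3.37 in scrambled cells (SE 0.30, adjusted p = 0.000574). Ccna2 (cyclin A2) fell by 1.61 in scrambled cells (adjusted p = 0.000436). Cdk4 fell by 0.52 in sponge cells (adjusted p = 0.0113) and by 1.02 in scrambled cells (adjusted p = 0.000497). Without IL-7, 6 of 8 were higher in sponge than in scrambled cells and 1 lower, where 16.8% of all genes were called higher and 15.3% lower. Ccne1 was 3.22 higher (adjusted p = 0.00143).

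**Figure D5:**
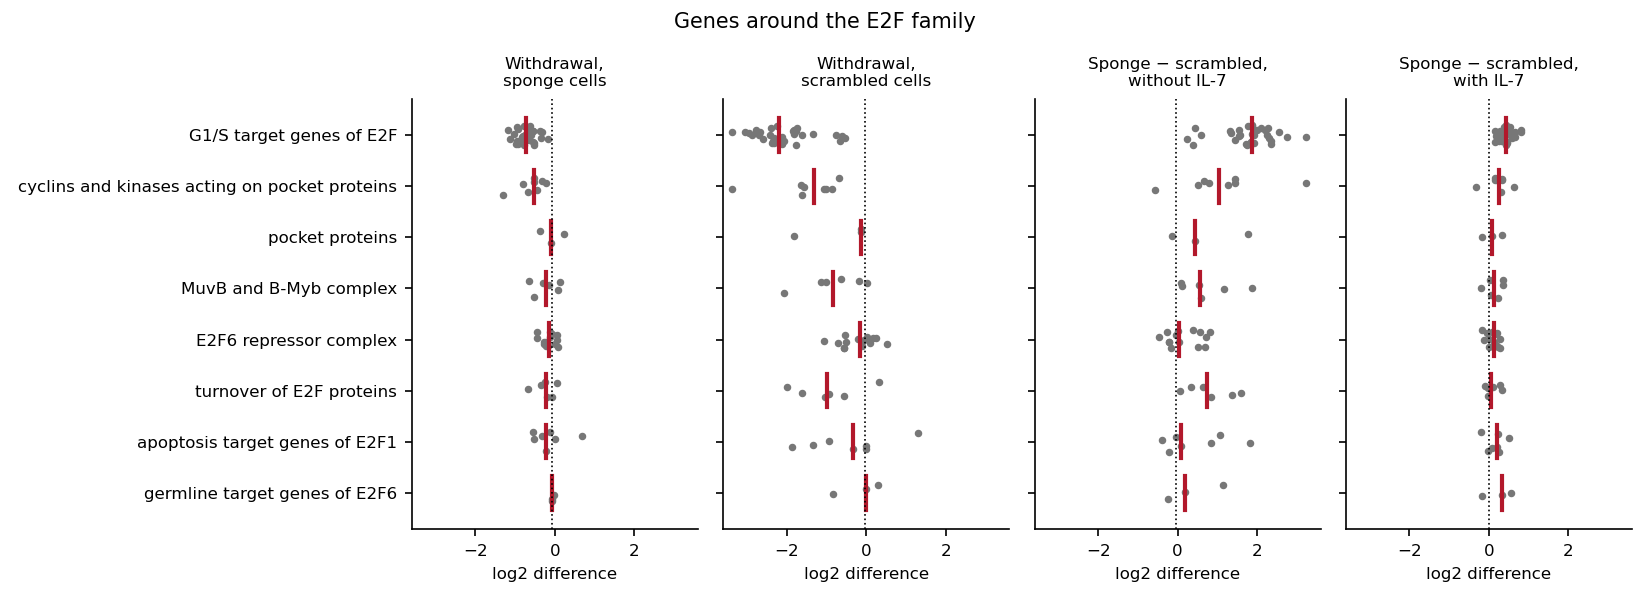
Log2 difference of each measured gene (points) in lists of genes around the E2F family, for withdrawal in sponge cells, withdrawal in scrambled cells, sponge minus scrambled without IL-7 and sponge minus scrambled with IL-7; red bars are list medians and the dotted line is the median of all genes. The G1/S target genes have medians of -0.72, -2.19, 1.87 and 0.43 in the 4 panels, and the lists of the E2F6 complex and of germline genes have medians near the dotted line in the first 2, with single genes on both sides of it.

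Of 6 genes for the MuvB complex and B-Myb, 2 fell in sponge cells (median -0.22; 0 with quantile normalisation, normexp or the deposited table, and 0 without replicate 2 of sponge cells without or with IL-7) and 4 in scrambled cells (median -0.82), Lin54 by 1.13 in scrambled cells (adjusted p = 0.000393) and Rbbp4 by 1.02 (adjusted p = 0.000942). Of 6 genes for the turnover of E2F proteins, 1 fell in sponge cells (median -0.22; 0 without any 1 array of sponge cells or of scrambled cells without IL-7) and 5 in scrambled cells (median -0.98). In scrambled cells the 3 named by the smallest p were Skp2, which fell by 1.99, Ccnf, which encodes cyclin F and fell by 1.62, and Fzr1, which fell by 1.03 (adjusted p = 0.000573, 0.000589 and 0.000855). Beside the MuvB and turnover counts, 15.2% of all genes were called lower in sponge cells and 27.4% in scrambled cells. The 1 of 6 turnover genes in sponge cells was close to the share there. Of 14 genes for the complex around E2F6, 2 fell in sponge cells (median -0.15, against -0.06 for all genes), close to the 15.2% of all genes called lower there, and without any 1 array the count was 0 or 1. In scrambled cells 6 of the 14 fell and 1 rose, where 27.4% of all genes were called lower and 20.7% higher. The median was -0.16, against -0.02 for all genes, and 4 rose with quantile normalisation, normexp or the deposited table. Cbx3 was at -1.05, L3mbtl2 at -0.71 and Hdac2 at -0.54. Of 6 germline genes that E2F6 keeps silent in somatic mouse cells, 3 were measured (Smc1b, Slc25a31 and Mael did not pass the filter). In scrambled cells with IL-7 their log2 levels were 0.05 and 0.42 for Stag3, -3.95 and -4.05 for Tuba3a, and -4.96 and -3.55 for Tuba3b. Tuba3a and Tuba3b were thus dim, and the Tuba3b replicates lay far apart. Of these Stag3 fell by 0.83 in scrambled cells (adjusted p = 0.0113), a call lost without replicate 1 of scrambled cells without IL-7, while the values for Tuba3a and Tuba3b were -0.01 and 0.30 (adjusted p = 0.949 and 0.621).

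Of 7 apoptosis genes known as targets of E2F1, 2 fell in sponge cells on withdrawal (median -0.22), where 15.2% of all genes were called lower, and 0 without any 1 of the 4 sponge arrays or with no filter on dim probes. The change of Bbc3, which encodes PUMA, was 0.70 in sponge cells (adjusted p = 0.0656). In scrambled cells 3 of 7 fell and 1 rose (median -0.32), where 27.4% of all genes were called lower and 20.7% higher. The 1 that rose was Bbc3, by 1.29 (adjusted p = 0.00409). Between sponge and scrambled cells without IL-7 the value for Bbc3 was -0.39 (adjusted p = 0.22).

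The genes whose levels over the 8 arrays were most like those of 4 members were found by Pearson correlation among 14016 genes with a symbol. The arrays form 4 groups of 2, so these values mostly compare group means, and they are given as a description. Trip13 (r = 0.999) and Nup62 (0.999) were among the genes most like E2f1. Spc25, Tuba1b and Prim1 (r = 0.9995, 0.9995 and 0.999) were most like E2f7, and Sapcd2, Nucks1 and Med9os (0.999, 0.999 and 0.999) most like E2f8. E2f2 was followed most closely by H2ac19, Pgm3 and Hdac6 (r = 0.997 each).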

How the data were processed

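Total RNA of 8 cultures was labelled with Cy3 and hybridised to one-colour Agilent arrays, 1 array per culture, per the labels' protocols. The deposited scanner tables hold a processed signal per spot, an intensity on a linear scale. Per the file headers it was corrected for background and detrended within the array, and nothing was scaled between arrays. The files were extracted with Agilent Feature Extraction 10.7.1.1 per the submitters' processing notes, and 10.7.3.1 per the file headers. The authors' deposited value table holds intensity with the same distribution on every array, its steps are not given in the sources used here, and it served as an alternative. Control spots and spots flagged as outliers (128 to 277 per array) were removed, the log2 signal was set against the 75th percentile of its array and averaged per probe, and the probes well above background on both arrays of any group were kept (30963 of 55681). The kept probe with the highest mean stood for its gene. Precision is limited by 2 arrays per group.

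Differences were tested with limma 3.58.1 in R 4.3.3 (lmFit and eBayes on 4 group means over all 8 arrays, residual degrees of freedom 4, prior 1.81), two-sided, with Benjamini-Hochberg adjustment over 21320 genes, and called at an adjusted p under 0.05. The script was tested on simulated data for withdrawal in scrambled cells only, and not for the other comparisons. The study's design text gives 2 independent experiments, but no source used here says that a replicate number marks the same experiment in all 4 groups. The replicate number was therefore fitted as a block as an alternative only. Their deviations from the group means correlated at 0.0177 to 0.131 between groups, so the files themselves show little pairing. Alternatives were quantile normalisation, normexp (offset 50) with quantile normalisation, the deposited table, no filter or a filter on all 8 arrays, the mean over a gene's probes, the replicate block, limma-trend with a robust prior, and leaving out each array in turn. Without an array, the lone one of its group is assumed to vary like the other groups.

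Members and lists were chosen with earlier results of these data known. All 10 members and all pocket proteins are named, and from each other list the 3 genes with the smallest p on withdrawal in scrambled cells. For likeness the 3 most correlated genes are named. No mm9 annotation was used, so exons under probes are not given. Values of some genes that the rules name are not reported here.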

Additional observations from a re-analysis of the deposited data

Results flagged for a closer look

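For 4 members the effect of IL-7 withdrawal differed between sponge and scrambled cells by a test of the difference itself (sponge minus scrambled, log2). The difference was 1.44 for E2f1, 1.75 for E2f7, 1.68 for E2f8 and 0.99 for Tfdp1. In sponge cells the 4 changes were -0.71, -0.52, -0.44 and -0.56 (E2f1, E2f7, E2f8, Tfdp1), against -2.15, -2.27, -2.12 and -1.55 in scrambled cells. With the replicate number as a block none of the 4 was called by limma (adjusted p = 0.0508 to 0.0556), and the call for E2f7 rests on 1 of its 2 probes (0.56 for the other, adjusted p over all probes = 0.305). Groups of 2 arrays are too small for a test of single outlying arrays.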

How the results depend on the processing

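Of the 27 calls on members, 16 held under all 16 alternatives: 8 of 9 on withdrawal in scrambled cells, 7 of 10 between sponge and scrambled cells without IL-7, and that of E2f3 on withdrawal in sponge cells. Counts of genes called that moved by over 1.5 times were, with no filter on dim probes, 2644 against 4939 on withdrawal in sponge cells (members 1 against 3), 82 against 241 between sponge and scrambled cells with IL-7 (members 0 against 1) and 0 against 1124 for the difference of the withdrawal effects (members 0 against 4, 7 of them at an unadjusted p under 0.05). With normexp correction they were 549 with IL-7 (members 3, E2f1, E2f3 and E2f5) and 2347 for the difference, with a filter on all 8 arrays 432 (members 2) and 1716, and with limma-trend 1030 (members 3, the same ones) and 2369. With the replicate block they were 151 with IL-7 (members 0) and 0 for the difference (members 0, and 5105 genes at an unadjusted p under 0.05), and the block ended no other call on a member. When 1 array was left out, the counts ran from 1738 to 5141 on withdrawal in sponge cells (members 1 to 5), 6770 to 10356 in scrambled cells (members 8 to 9), 38 to 1360 with IL-7 (members 0 to 1, the most genes without replicate 2 of scrambled cells), 3416 to 7447 without IL-7 (members 8 to 10) and 0 to 1616 for the difference (members 0 to 4). Values that changed sign, none of them called in the reported fit, were E2f2 on withdrawal in sponge cells (0.098 with quantile normalisation, 0.067 with normexp, 0.12 in the deposited table). Without 1 array, E2f5 ran from -0.099 to 0.013 for the difference and from -0.0079 to 0.10 on withdrawal in sponge cells, and with IL-7 E2f4 ran from -0.035 to 0.036 and E2f2 from -0.067 to 0.14. Calls higher were 34.2% of those on withdrawal in sponge cells, and 51.2%, 49.7% and 51.5% with quantile normalisation, normexp and the deposited table, and 81.9% of those for the difference, against 63.7% with normexp. With IL-7 they were 27.8%, and 38.9% with a filter on all 8 arrays, 46.9% with limma-trend and 61.5% without replicate 2 of scrambled cells. With no filter the median of all genes was -0.20 on withdrawal in scrambled cells, against -0.02. The causes of these shifts were not tested, and with 2 arrays per group each call rests on few arrays.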
